A study of Mus musculus with 8 samples.

Results

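The epithelial keratins of the basal layer and outer root sheath were followed in whisker follicles of mice given E7386 or vehicle. The set holds 8 genes of the 37018 genes on the array: the basal pair Krt5 and Krt14, the bulge keratin Krt15, the stress-linked keratins Krt6a, Krt6b, Krt16 and Krt17, and Krt19. They were chosen by name, and each was found on the array through its RefSeq accession. All 8 were well above background on all 8 arrays, so all 8 are among the 25353 genes tested.

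Both groups were female mice of genotype ApcMin/+, so the controls also carry the truncating Apc allele and no wild-type follicles are compared here. Apc helps to tag beta-catenin for destruction, and E7386 is an oral compound described as disrupting the contact of beta-catenin with its coactivator CBP. The E7386 group (n = 4) received 30 mg/kg by mouth, 2 times per day, in 4 cycles of 5 days with and 2 days without drug, beginning when the mice were 8 weeks old, with follicles taken 6 h after the last dose. The vehicle group (n = 4) had the same genotype, sex and tissue, and the labels' text on dosing, which is shared by all samples, names E7386 only. The labels do not say whether samples of a group are separate mice, so p-values measure the spread between these samples only, which may be technical. RNA came from whole follicles, where fewer cells of a type and less RNA per cell cannot be told apart.

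Keratins are paired filament proteins, a type I partner (Krt14, Krt15, Krt16, Krt17, Krt19) with a type II partner (Krt5, Krt6a, Krt6b). Krt5 and Krt14 build the filaments of the basal, dividing layer of skin and of the outer root sheath, the sleeve of epithelium that surrounds the growing hair. Krt15 marks the bulge, the part of the sheath that houses follicle stem cells. Krt6a, Krt6b, Krt16 and Krt17 are made constantly in follicle sheath layers and switched on in the epidermis by wounding and inflammation. Krt19 is found in the bulge and in simple and glandular epithelia. Among protein-coding genes of the RefSeq table Krt14, Krt16 and Krt17 lie next to each other on chromosome 11, where Krt15 and Krt19 are also neighbours, and Krt6b, Krt6a and Krt5 follow each other on chromosome 15.

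Each array gives 1 sample's Cy3 intensities. Values are log2 of the background-corrected intensity minus the array's 75th percentile, so a value of 0 lies at that percentile. Those percentiles ran from 459.4 to 656.2 intensity units. With 4 arrays per group, precision is limited by their number. All 4 vehicle arrays lie in the first row of the slide and all 4 E7386 arrays in the other row, so row and treatment cannot be told apart. Epithelial identity was checked with Krt5, Krt14, Itga6, Trp63 and Cdh3 and hair shaft identity with Krt31, Krt33a, Krt34 and Krt35, and each of these genes was well above background on 8 arrays. Skeletal muscle markers varied most of the marker lists for other cell types, with array means between 1.27 and 4.59 for vehicle and between 1.60 and 4.69 for E7386 (10 of 10 markers tested).

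None of the 8 keratins passed the test between E7386 and vehicle (limma, Benjamini-Hochberg adjusted p under 0.05 over all genes). At that threshold 1.13% of all genes tested were called, 198 higher and 89 lower, and with arrays scaled to their medians 55.3% of the calls were higher in place of 69%. Means were higher with E7386 for 3 keratins and lower for 5, with a median log2 change of -0.052, beside 0.017 over all genes tested. At an unadjusted p under 0.05, 1 keratin stood out, Krt19, where 15% of all genes did. Krt19 was also the 1 keratin whose groups of arrays did not overlap, which 10.4% of all genes showed. With 1 keratin in 8, the share is near that background in both counts, and nothing particular to the keratins is read from it.

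**Figure D1:**
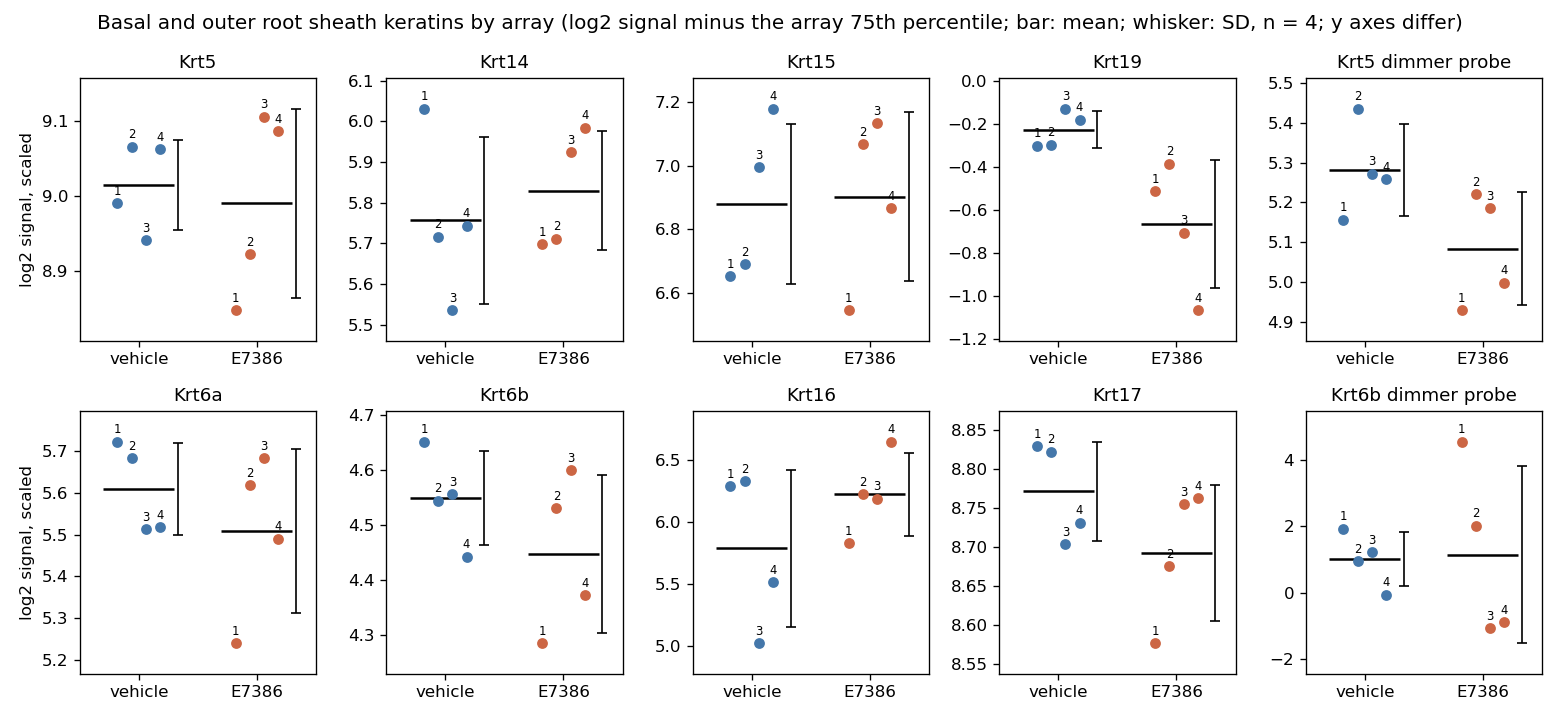
Log2 signal minus the array's 75th percentile for the 8 keratins and for the dimmer probes of Krt5 and Krt6b, with 1 point per array labelled by replicate number, a bar for the group mean and a whisker for the SD (n = 4). The y axes differ between panels. Krt19 is the panel of a chosen probe in which the E7386 points, from -1.07 to -0.38, lie below all vehicle points, from -0.30 to -0.13.

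Krt5, the type II keratin of the basal layer, read 8.99, 9.07, 8.94 and 9.06 on vehicle arrays 1 to 4 and 8.85, 8.92, 9.11 and 9.09 on E7386 arrays 1 to 4. The groups overlapped, and the E7386 arrays held both the lowest and the highest value. The change was -0.024 on the log2 scale (SE 0.084, adjusted p = 0.932), with a 95% interval from -0.22 to 0.17. The dimmer Krt5 probe averaged 5.28 ± 0.12 (SD) in the vehicle group and 5.08 ± 0.14 in the E7386 group. Its change of -0.20 (SE 0.099, 95% interval -0.42 to 0.031) did not pass either (limma adjusted p = 0.41 over 34112 probes). The size of the change of the brighter probe depended on the scaling, with -0.24 under quantile normalization and under the authors' processed values (limma adjusted p = 0.425 in each) and -0.096 with array medians. Over the 8 arrays the brighter probe had r = -0.92 with the mean of 14 epithelial alarm and wound genes. With the mean of immune cell markers it had r = -0.75. The dimmer Krt5 probe had r = -0.42 and r = 0.04 with the same means, and r = 0.35 with the brighter probe. The relation with the immune cell markers was thus not seen with the dimmer probe, and that with the alarm and wound genes was weaker.

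Krt14, the type I partner of Krt5, read 6.03, 5.72, 5.54 and 5.74 with vehicle and 5.70, 5.71, 5.92 and 5.98 with E7386. Vehicle array 1 was the highest of all 8 and vehicle array 3 the lowest, so the E7386 values lay inside the vehicle range. The change was 0.072 (SE 0.12, adjusted p = 0.839), with a 95% interval from -0.21 to 0.36. The pair was also compared within arrays. The difference Krt5 minus Krt14 averaged 3.26 ± 0.20 (SD) over the 4 vehicle arrays and 3.16 ± 0.046 over the 4 E7386 arrays, where the size of the difference itself depends on the probes and only its change, -0.097, can be read. Krt14 had r = -0.87 with the mean of immune cell markers, and r = -0.89 after group means were removed (n = 8 arrays). Of those markers 5 of 6 were tested, among them Ptprc and Cd3e, and their mean lay between 1.30 and 1.69 on vehicle arrays and between 1.24 and 1.66 on E7386 arrays. The part of immune cells in the values of the brighter Krt5 probe and of Krt14 was not tested.

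Of the promoter windows in the RefSeq table, which run from 250 bases before a gene's start to 50 after, 2 belong to the 8 keratins, Krt5 and Krt14. The start position that the Krt14 window is built on lies 1480 bases inside the annotated gene, so the Krt5 window is the one shown. It lies on the minus strand of GRCm38.p6 at chr15:101712906-101713155 and is written 5′ to 3′ up to the base before the start.

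Krt5: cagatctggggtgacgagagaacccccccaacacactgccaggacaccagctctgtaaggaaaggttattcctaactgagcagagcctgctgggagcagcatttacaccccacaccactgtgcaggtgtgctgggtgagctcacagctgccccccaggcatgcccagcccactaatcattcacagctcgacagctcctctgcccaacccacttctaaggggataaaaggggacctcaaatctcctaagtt

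Motifs were matched on both strands over the whole 300 bases. Neither the Krt5 nor the Krt14 window holds TATAAA (an exact form of the TATA box, in 13.6% of all 32851 windows) or TGANTCA (AP-1, in 7.81%). Neither holds CTTTGA (the core of TCF/LEF sites, in 16%) or the glucocorticoid response element (in 0.475%). Looser forms of the TATA box were not searched. No letters are in capitals because none of these motifs matched, which says only that the letters are not in these windows.

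Krt15, the bulge keratin, read 6.65, 6.69, 6.99 and 7.18 with vehicle and 6.55, 7.07, 7.13 and 6.87 with E7386. Both groups held low and high arrays and overlapped almost fully. The change was 0.024 (SE 0.17, adjusted p = 0.968), with a 95% interval from -0.36 to 0.41, and its sign turned negative with quantile normalization (-0.041), with array medians (-0.048) and with the authors' processed values (-0.040). Relative to the mean of Krt5 and Krt14 on the same array, Krt15 stood at -0.51 ± 0.32 (SD) in the vehicle group and -0.51 ± 0.23 in the E7386 group.

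Between arrays Krt15 varied together with the mean of a list of bulge genes. The mean of 12 bulge stem cell genes, among them Lgr5, Cd34, Lhx2 and Sox9, ran from 2.54 to 2.65 with vehicle and from 2.47 to 2.65 with E7386, and across the 8 arrays Krt15 followed it with Pearson's r = 0.93 (Spearman's rho 0.95). Without the arrays farthest out, E7386 1 and vehicle 1, r was 0.94 over 6 arrays. Fgf18 had the widest spread of the 12 genes (SD 0.33 with vehicle and 0.77 with E7386) and so weighs most in the mean. The genes of the list were not compared with Krt15 one by one. With 12 basal layer adhesion genes, which share Itga6 with the bulge list, Krt15 had r = 0.83 (Spearman's rho 0.74). Without vehicle 1 and E7386 3 that r was 0.78 over 6 arrays. After the group means were removed, Krt15 had r = 0.98 with the adhesion genes and 0.93 with the bulge list. With 10 companion layer and inner sheath keratins it then had r = -0.90. Krt15 also had r = 0.67 with the muscle markers, and r = -0.83 with the melanocyte markers, 5 of 5 tested, whose mean lay between 1.84 and 2.85 with vehicle and between 2.19 and 2.71 with E7386. The part of muscle or melanocyte content in these relations was not tested. The arrays share 1 slide and each array's scaling, and these correlations were picked from 160 pairs of a keratin probe and a gene list after their values were seen. They describe these 8 arrays and carry no test.

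**Figure D2:**
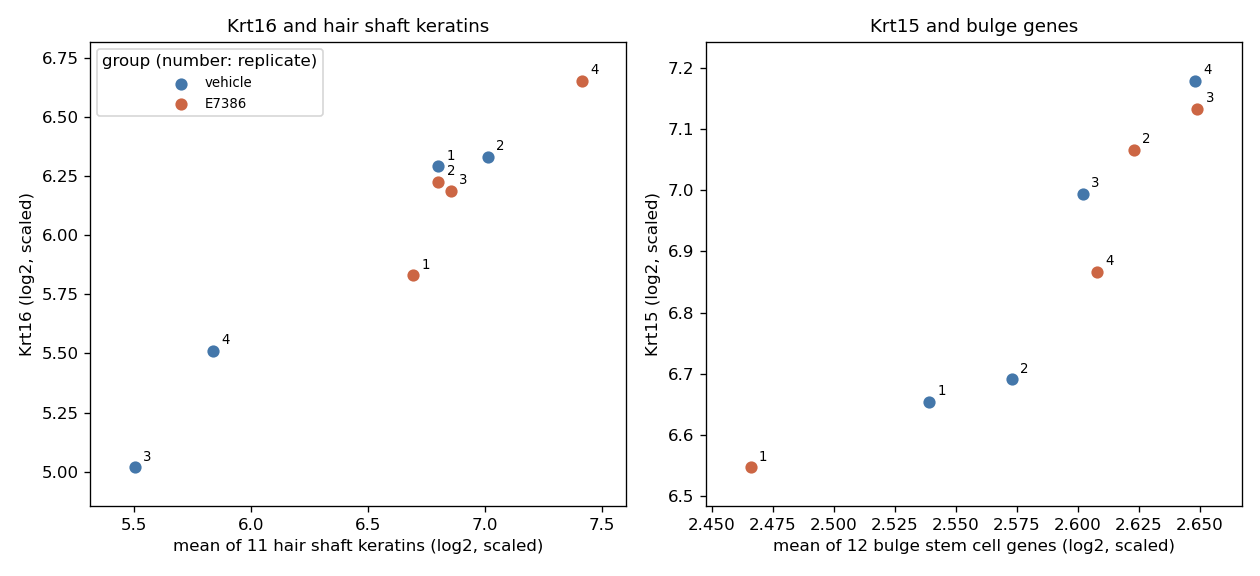
Krt16 against the mean of 11 hair shaft keratins (left) and Krt15 against the mean of 12 bulge stem cell genes (right), as log2 signal minus the array's 75th percentile, with 1 point per array labelled by replicate number and coloured by group. Vehicle arrays 3 and 4 are the lowest on both axes of the left panel, and E7386 array 1 and vehicle array 1 are the lowest in the right panel.

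Krt6a, a type II keratin of the sheath and of wounded epidermis, read 5.72, 5.68, 5.51 and 5.52 with vehicle and 5.24, 5.62, 5.68 and 5.49 with E7386. The values overlapped apart from a low E7386 array 1. The change was -0.10 (SE 0.11, adjusted p = 0.73), with a 95% interval from -0.36 to 0.16.

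Krt6b, its close paralogue, was read by a pair of probes that behaved differently. The brighter probe, A_51_P126275, which stands for the gene by the rule, read 4.65, 4.54, 4.56 and 4.44 with vehicle and 4.28, 4.53, 4.60 and 4.37 with E7386. These values again overlapped, with E7386 array 1 lowest, and the change was -0.10 (SE 0.093, 95% interval -0.32 to 0.11, adjusted p = 0.658). This probe kept a near constant distance from Krt6a, a mean of 1.06 ± 0.076 (SD) in the vehicle group and 1.06 ± 0.071 in the E7386 group, and its deviations from the group means followed those of Krt6a with r = 0.90 (n = 8 arrays). Krt6a and Krt6b are near-identical genes, so how far each probe reads one or the other is uncertain, and probe sequences were not used here.

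The dimmer Krt6b probe, A_66_P101935, read 1.93, 0.95, 1.22 and -0.05 with vehicle and 4.55, 2.02, -1.07 and -0.89 with E7386. It was well above background on all 8 arrays, with unscaled intensities from 240 to 14049 units. The scaled values spanned 5.62 log2 units, or 49.01-fold, between the lowest array, E7386 3, and the highest, E7386 1. That range was at the 99.9th percentile of the 30838 probes well above background on all 8 arrays, whereas the brighter probe spanned 1.29-fold on the same scale. The E7386 arrays held both the highest and the lowest values, so the change was 0.14 with a standard error of 1.20 (95% interval -2.61 to 2.89, limma adjusted p = 0.974 over 34112 probes). Without E7386 array 1 it was -0.99 (SE 0.81, adjusted p = 0.61). With the probes of each gene averaged, Krt6b stood at 0.019, a turned sign.

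**Figure D3:**
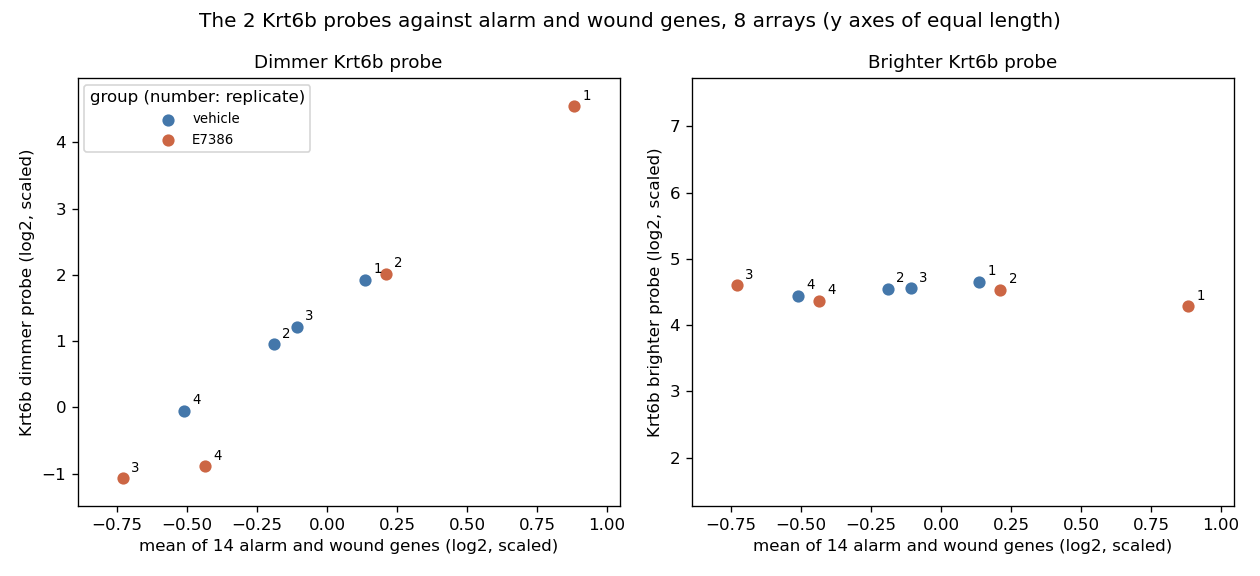
The dimmer (left) and brighter (right) Krt6b probe against the mean of 14 epithelial alarm and wound genes, as log2 signal minus the array's 75th percentile, with 1 point per array labelled by replicate number and coloured by group, on y axes of equal length. The dimmer probe climbs from -1.07 on E7386 array 3 to 4.55 on E7386 array 1 along the list mean, while the brighter probe stays between 4.28 and 4.65.

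The dimmer Krt6b probe followed the mean of a list of epithelial alarm genes from array to array, though not each gene of it. The mean of the 14 alarm and wound genes tested was 0.14, -0.19, -0.11 and -0.51 on vehicle arrays 1 to 4 and 0.88, 0.21, -0.73 and -0.44 on E7386 arrays 1 to 4. The probe had r = 0.98 with it (Spearman's rho 0.98, n = 8 arrays), 0.99 after group means were removed, and 0.94 over 6 arrays without E7386 1 and E7386 3. Within the list, 7 of 14 genes had r from 0.76 to 0.94 with the probe, 6 had r from 0.15 to 0.52, and Il33 had r = -0.53. Over all genes tested, 67 or 0.265% had r over 0.9 with it, and in the list 4 did. The genes of the list closest to the probe were S100a8, a calcium-binding protein of inflamed skin, with r = 0.94, Sprr2d, a cornified envelope precursor, with r = 0.93, and Il1b, an inflammatory cytokine, with r = 0.92. The brighter Krt6b probe had r = -0.47, -0.23 and -0.24 with the same genes.

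S100a8 read 2.39, 2.00, 1.77 and 1.27 with vehicle and 4.34, 2.06, 1.28 and 1.35 with E7386. S100a9, which forms a dimer with S100a8, read 0.76, -0.55, 1.96 and 0.87 with vehicle and 5.24, 2.42, 0.56 and 0.70 with E7386. Sprr2d spanned 8.40 log2 units, from -4.88 on E7386 array 3 to 3.51 on E7386 array 1, and so weighs most in the list mean. Without S100a8, S100a9 and Sprr2d, left out after their values were seen, the probe had r = 0.86 with the mean of the other 11 genes. E7386 array 1 was the highest of all 8 for these 3 genes and for the dimmer Krt6b probe, while it was the lowest for Krt6a and the brighter Krt6b probe. The dimmer probe had r = -0.84 with the mean of the muscle markers, whose part in the relation was not tested.

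No gene of the alarm and wound list was called between the groups (0 of 14, 1 at an unadjusted p under 0.05, beside 1.13% called over all genes). Their median log2 change was -0.0040. The smallest p-values were those of Il33, an alarm cytokine, with a change of -0.44 (SE 0.16, adjusted p = 0.246), and of Ereg, a growth factor for keratinocytes, with -0.25 (SE 0.13, adjusted p = 0.434).

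Krt16, the type I partner of the Krt6 proteins, had the widest spread of the 8 chosen probes. It read 6.29, 6.33, 5.02 and 5.51 with vehicle and 5.83, 6.23, 6.19 and 6.65 with E7386. Vehicle arrays 3 and 4 were low and the other vehicle arrays lay among the E7386 values. The means were 5.79 ± 0.64 (SD, n = 4) and 6.22 ± 0.34, a change of 0.44 (SE 0.32, adjusted p = 0.567) with a 95% interval from -0.29 to 1.16. Without vehicle array 3 the change was 0.18 (adjusted p = 0.824), and without vehicle array 2 it was 0.62 (adjusted p = 0.457).

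The same vehicle arrays were low for the keratins of the hair shaft. The mean of 11 hair shaft keratins was 6.80, 7.01, 5.50 and 5.84 on vehicle arrays 1 to 4 and 6.70, 6.80, 6.86 and 7.41 on E7386 arrays 1 to 4. Krt16 followed that mean with r = 0.97 (Spearman's rho 0.90, n = 8 arrays). Because vehicle arrays 3 and 4 stand apart, r was also taken over the other 6 arrays, where it was 0.88. Krt36, a hair shaft keratin, had r = 0.96 with Krt16 after group means were removed. With the hair shaft mean as a covariate, an alternative chosen after seeing the data, the change of Krt16 was -0.14 (SE 0.11, adjusted p = 0.572), a turned sign. No hair shaft keratin was called (0 of 11 tested, 1 at an unadjusted p under 0.05), and 10 of 11 had higher means with E7386, with a median log2 change of 0.45. The largest was Krt84, with a change of 3.35 (SE 0.96, adjusted p = 0.163), and Krt36 was at 0.73 (SE 0.37, adjusted p = 0.402). Krt84 ran from 0.10 to 5.93 over the arrays and so weighs most in the hair shaft mean. Neither the correlation of Krt16 with that mean nor the covariate was computed without Krt84.

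Krt17, a sheath keratin that also responds to injury, had the narrowest spread between arrays of the 8 chosen probes. Its probe ranked 29 of 55681 by mean signal, and that of Krt5, the next narrowest, ranked 11. The part of brightness in these spreads was not tested. Krt17 read 8.83, 8.82, 8.70 and 8.73 with vehicle and 8.58, 8.68, 8.75 and 8.76 with E7386. The groups overlapped, with E7386 array 1 lowest. The change was -0.079 (SE 0.074, adjusted p = 0.669), with a 95% interval from -0.25 to 0.092. It was larger under quantile normalization, at -0.29 (limma unadjusted p = 0.0394, adjusted p = 0.291), and under the authors' processed values, at -0.30 (limma unadjusted p = 0.038, adjusted p = 0.287), without passing the threshold. The probes of Krt16 and Krt17, neighbours in the genome, thus differed in spread. Krt16 minus Krt17 on the same array changed by 0.52, from -2.98 ± 0.57 (SD, n = 4) to -2.47 ± 0.27.

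For the 4 stress-linked keratins as a group, the mean minus that of Krt5 and Krt14 on the same array was -1.21 ± 0.14 (SD) for the 4 vehicle arrays and -1.19 ± 0.099 for the 4 E7386 arrays. The values overlapped, from -1.35 to -1.05 on vehicle arrays and from -1.29 to -1.05 on E7386 arrays. Within the group 1 keratin, Krt16, had a higher mean with E7386 and 3 had lower means.

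Krt19 and Krt16 had the largest changes in either direction, and Krt19 alone had groups without overlap. Krt19 read -0.30, -0.30, -0.13 and -0.18 with vehicle and -0.51, -0.38, -0.70 and -1.07 with E7386. All 4 E7386 arrays lay below all 4 vehicle arrays, as in 5.23% of all genes tested, and E7386 array 4 was the lowest. The means were -0.23 ± 0.086 (SD, n = 4) and -0.67 ± 0.30, a change of -0.44 (SE 0.15, unadjusted p = 0.0161, limma adjusted p = 0.214), or 1.36-fold lower. The 95% interval ran from -0.77 to -0.11. The change kept its sign in all 21 alternatives tried, from -0.53 without E7386 array 2 to -0.31 without E7386 array 4, and passed the threshold in 0 of them, with adjusted p-values from 0.153 to 0.42. Its intensity, 219 to 563 units, was well above background on every array.

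**Figure D4:**
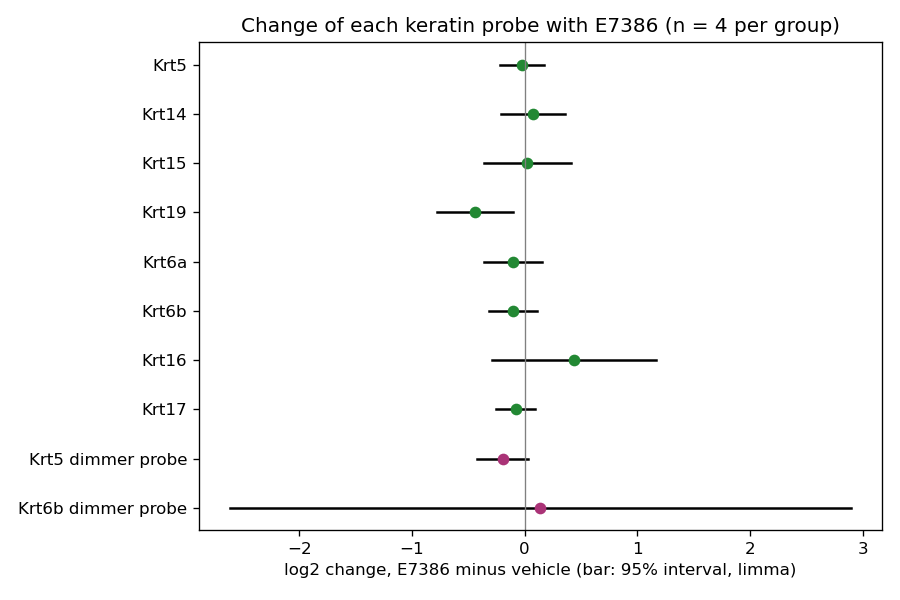
Log2 change between E7386 and vehicle for the chosen probe of each keratin (green) and for the dimmer probes of Krt5 and Krt6b (purple), with 95% intervals from limma (n = 4 per group). The interval of Krt19, from -0.77 to -0.11, is the one that leaves out 0 before adjustment, and that of the dimmer Krt6b probe is the widest.

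Other keratins and glands beside Krt19 gave the following values. Krt19 is made in simple epithelia together with Krt8 and Krt18. Both of these had higher means with E7386, and the groups overlapped for Krt8. The mean of 5 simple epithelial keratins lay between 0.27 and 0.38 on vehicle arrays and between 0.53 and 0.62 on E7386 arrays, without overlap. Krt18 had a change of 0.47 (SE 0.10, adjusted p = 0.0861) and Krt8 of 0.27 (SE 0.14, adjusted p = 0.425), with 0 of the 5 called. Sebaceous gland markers, 6 of 6 tested, had array means from 0.20 to 0.53 with vehicle and from 0.51 to 0.84 with E7386. In that list 1 gene rose, Dgat2l6, an acyltransferase of sebum lipids, by 0.78 (SE 0.12, adjusted p = 0.0292). Over the 8 arrays Krt19 had r = -0.81 with the sebaceous mean and -0.75 with the hair shaft mean. After group means were removed these were -0.56 and -0.61, and the part of either in the difference of Krt19 was not tested.

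The chosen probes of the keratins were compared by how they varied among arrays of the same group. The closest pairs were Krt6a with Krt6b (r = 0.90), Krt16 with Krt17 (r = 0.83), Krt6a with Krt17 (r = 0.82) and Krt5 with Krt17 (r = 0.80), all as deviations from group means over 8 arrays. The basal pair, Krt5 with Krt14, had r = 0.56. Krt19 ran against Krt5 and Krt17, with r = -0.70 for each, and against Krt14, with r = -0.68. These values for Krt5 hold for its brighter probe. The dimmer Krt5 probe had r = 0.24 with Krt19, 0.31 with Krt17 and -0.27 with Krt14. With Krt6a it had r = 0.62, where the brighter probe had 0.56. Krt15 had correlations between -0.34 and 0.43 with the other 7.

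**Figure D5:**
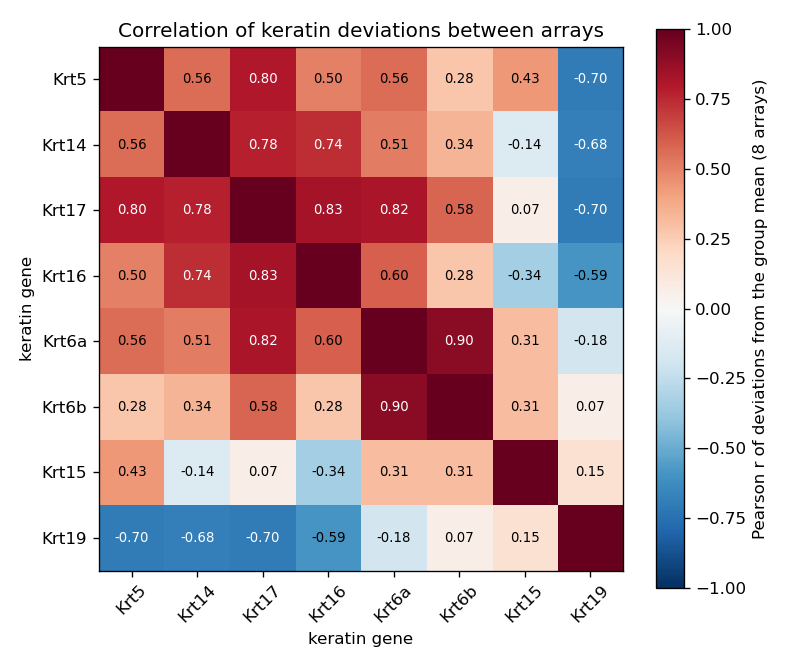
Pearson correlation of the deviations from group means over 8 arrays for each pair of the 8 keratins, by chosen probe. Red stands for positive and blue for negative values. Krt17 lies between 0.58 and 0.83 with Krt5, Krt14, Krt16, Krt6a and Krt6b, and Krt19 is negative with Krt5, Krt14, Krt16 and Krt17.

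The genes most like the keratins across the 8 arrays, among 16136 tested genes with a symbol, were mostly no keratins. For Krt15 they were Thbs3 (r = 0.99), Hs1bp3 (0.98), Nelfb (0.97), Dcaf6 (0.97) and Chat (0.96). For Krt14 they were Wbscr25 (0.94), Ccdc97, Ooep (0.93 each), Pdcd5 and Olfr920 (0.91 each). For Krt6a they were Gm13547 (0.94), Kirrel2, Prph (0.93 each), Vti1b and Gm5476 (0.92 each). Gm5476 is listed by RefSeq as a transcribed pseudogene on chromosome 15. Such values are the highest of many over 8 arrays and say nothing of shared function.

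Genes of keratin anchoring, of basal layer adhesion and of keratin gene regulation were called in no case. Of 12 keratin anchoring genes, such as the desmosome linker Dsp, 0 were called, 9 had higher means with E7386 and the median change was 0.099. Of 12 basal layer adhesion genes 0 were called and 9 had higher means, with a median of 0.14. Lama3 and Lamb3, chains of laminin-332 under the basal layer, had changes of 0.35 (SE 0.11, adjusted p = 0.186) and 0.39 (SE 0.15, adjusted p = 0.293). Of 20 regulators of basal keratin genes 0 were called, with a median of 0.043. The smallest p-values were those of Stat3, a transcription factor active in wound epithelium, at 0.45 (SE 0.088, limma adjusted p = 0.0616), and of Fosl2, a subunit of AP-1, at 0.40 (SE 0.082, adjusted p = 0.0745). Both were higher without overlap between groups. Of the 20 regulators 3 were higher and 2 lower without overlap, which 10.4% of all genes showed in either direction.

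Among bulge stem cell genes 0 of 12 were called, 8 had lower means and the median change was -0.042. Cd200 stood at 0.27 (SE 0.10, adjusted p = 0.283) and Gas1 at -0.21 (SE 0.091, adjusted p = 0.318). Companion layer and inner sheath keratins gave 0 calls of 10 and a median of -0.018, with Krt75, a companion layer keratin, at 0.58 (SE 0.24, adjusted p = 0.304) and Krt28 at -0.23 (SE 0.17, adjusted p = 0.569). Suprabasal keratins gave 0 calls of 6 and a median of 0.11, with Krt80 at 0.17 (SE 0.080, adjusted p = 0.358) and Krt77 at -1.08 (SE 1.03, adjusted p = 0.677).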

How the data were processed

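Total RNA of 8 samples (4 per group) was labelled with Cy3 from 50 ng and hybridised to 1-colour Agilent arrays. The authors' scanner files give an intensity for each spot, from Feature Extraction 11.5.1.1 per the file headers (version 11 per the submitters' processing notes). The authors also deposited log2 values of these arrays. Each column has a median of 5.31 and an identical set of sorted values in the rank order of the scanner values, without centring per gene, and the table served as an alternative.

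Processed signals were taken to log2 and the 75th percentile over an array's non-control spots was subtracted. Non-uniform spots (2 to 14 per array) were set to missing, and spots of a probe were averaged. Accessions were matched without version to the RefSeq table of GRCm38.p6, naming 27509 of 55681 probes. The array was designed on mm9, per the file headers. Each gene was represented by its probe of highest mean signal, if well above background on at least 3 of 4 arrays of a group. Genes were fitted with limma 3.58.1 in R 4.3.3 (lmFit, eBayes), tested on simulated data, with Benjamini-Hochberg adjustment; the dimmer probes come from the same fit over 34112 probes.

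The members, lists and tests were chosen with earlier results of these data known. Named are the 8 keratins with all their probes, the called genes or otherwise the 2 smallest p-values of each list, and the 5 genes most like Krt14, Krt15 and Krt6a. S100a8, S100a9, Sprr2d and Il1b were named after their values were seen. Alternatives were the background correction, normalization, scaling, filter, probe choice, variance model, weights, marked spots, a muscle covariate, the replicate number as a block and leaving out each array.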

Additional observations from a re-analysis of the deposited data

How the results depend on the processing

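None of the 8 keratins passed the threshold in any of the 21 alternatives run for each, or the 22 for Krt16. Krt6a, Krt17 and Krt19 kept their sign in all of them. Signs turned for the small changes of Krt5, Krt14, Krt15 and Krt6b, and for Krt16, at 0.44, with the hair shaft covariate. Krt15 was at -0.041 with quantile normalization, -0.048 with array medians and -0.040 with the authors' processed values, and Krt6b was at 0.019 with probes averaged. Sizes also moved by over 1.5 times without a call. With quantile normalization and with the authors' processed values, which gave nearly equal changes, Krt5 was at -0.24 in both, Krt17 at -0.29 and -0.30, and Krt14 at 0.030 in both. With array medians Krt5 was at -0.096, Krt14 at 0.00046, Krt17 at -0.15, and Krt6a and Krt6b at -0.17 each. Krt16 was at -0.14 with the hair shaft covariate. The dimmer Krt6b probe was at -0.20 with array weights and -0.013 with the muscle covariate. With 1 array left out, changes ran from -0.063 to 0.024 for Krt5, -0.0014 to 0.16 for Krt14, -0.053 to 0.14 for Krt15, 0.18 to 0.62 for Krt16, -0.53 to -0.31 for Krt19 and -0.99 to 0.88 for the dimmer Krt6b probe. The cause of these turns was not tested. The count of 287 called genes became 155 without the filter on dim probes, where more genes were tested, and 574 with the muscle covariate, and it ran from 86 to 257 with 1 array left out. It was 156, 127 and 123 without vehicle arrays 1, 2 and 3 and 154, 86 and 104 without E7386 arrays 2, 3 and 4. With the replicate number as a block it was 48. Same-numbered arrays had correlations of deviations of 0.49, -0.17, 0.29 and 0.18. Of the 4 vehicle arrays 2 correlated best with their own number, and of the 4 E7386 arrays 1 did. So few arrays cannot settle whether the numbers pair the samples. The block left all 8 keratins without a call. Normexp on gMeanSignal could not be run on these files; normexp on median signals and leaving out population outlier spots, chosen after seeing the data, called 382 and 294 genes. All keratin probes were well above background on all 8 arrays. With normexp on median signals Krt19 was at -0.37 and the dimmer Krt6b probe at 0.25, beside -0.44 and 0.14 in the main fit. The part of background in these values was not tested.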

Other observations

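Krt84, a type II keratin of the hair shaft list, split the arrays in a way that no basal or outer root sheath keratin did. It read 2.37, 2.39, 0.10 and 0.66 on vehicle arrays 1 to 4 and 1.90, 5.28, 5.93 and 5.79 on E7386 arrays 1 to 4. E7386 array 1 lay between vehicle arrays, and the other E7386 arrays lay above all vehicle arrays. That array was also the one with the highest dimmer Krt6b probe, at 4.55, and the lowest Krt15, at 6.55. These arrays were singled out after their values were seen.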
